A study of Mus musculus with 8 samples.

Results

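The 4 Control lines of the mouse ovarian tumor model ID8 IP2 were described on their own, without any comparison with the lines that express Notch3IC, the intracellular domain of Notch3. They were chosen by their label, the Control library of each of Sets 1 to 4, and are 4 of the 8 libraries of the study. ID8 is a tumor line from the ovarian surface epithelium of C57BL/6 mice, and ID8 IP2 is a subline recovered after passage through mice. Each set is a separate infection, and the cells grew in DMEM with serum, an insulin, transferrin and selenium supplement and antibiotics. All 4 lines carry the lentivirus FUW-luciferase-mCherry and a pCCL vector without insert, and no library of the cells before infection was analysed here. Each line is 1 set and 1 library, so the differences given below have no replicate, lines were not tested against each other, and the spread between lines cannot be told apart from that between libraries. The study's methods state that testing after the experiments pointed to mycoplasma in every ID8 IP2 line, and its part in the levels below was not tested.

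Libraries of polyadenylated RNA were read from 1 end, 100 bases long, on a HiSeq 2000 or 2500. The instrument of each library is not given in the sources used here, so instrument and line cannot be told apart. The authors deposited read counts for 23284 gene symbols, which add up to 24910528, 19013578, 23601232 and 28208072 in the Control libraries of Sets 1, 2, 3 and 4. Levels of a gene are given as counts per 1000000 counted reads (CPM), always in the order of Sets 1 to 4. Levels of different genes are compared as the CPM per kilobase of annotated exon (RPKM), as mean ± SD over the 4 libraries (n = 4). The Set 1 library stood apart from the rest, as described under the variation between lines, and means over the 4 libraries include it.

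The ovarian surface epithelium is a single layer of cells continuous with the peritoneal mesothelium, and both come from the coelomic epithelium of the embryo. Cells of this lineage keep keratins beside vimentin and N-cadherin, and they carry the transcription factor Wt1 together with the membrane proteins mesothelin and uroplakin 3b. The oviduct epithelium, the other proposed origin of serous ovarian carcinoma, comes from the Müllerian duct and is marked by Pax8, Pax2 and Sox17.

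A gene was called expressed at 1 CPM or more in all 4 libraries, and 11080 genes met this limit, 47.6% of the symbols. They held 99.8% of the counts. A further 8702 symbols, 37.4%, were below 0.1 CPM in all 4 libraries, and 6834 had no count in any. A count of 0 allows up to 3 counts, which are 0.120, 0.158, 0.127 and 0.106 CPM in the 4 libraries, so absence here means below that level of polyadenylated RNA. These limits cover counting error only. They do not cover a loss of reads that match several genes, whose treatment is not given in the sources used here. The genes just inside the limit by their lowest library were 9330151L19Rik, Acot6 and Agbl3 at 1.00 CPM, with highest libraries at 2.95, 1.95 and 2.89 CPM. Just outside were 1810044D09Rik, Abhd15 and Efs at 0.999 CPM, with highest libraries at 1.31, 1.93 and 3.26 CPM. The median expressed gene stood at 9.09 RPKM, with quartiles at 3.54 and 21.5 RPKM.

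The highest levels per exon length belonged to chaperones, translation factors and a few secreted or cytoskeletal proteins. Hsp90ab1, a cytosolic chaperone, led with 2017 ± 196 RPKM, followed by Lgals1, the secreted lectin galectin-1, with 1832 ± 261 RPKM. Calr and P4hb, which fold proteins in the endoplasmic reticulum, stood at 1235 ± 259 RPKM and 1028 ± 212 RPKM. The collagen chaperone Serpinh1 and the matrix protein Sparc were also among the 15 highest genes, at 775 ± 125 RPKM and 767 ± 119 RPKM. The remaining places were held by Eef1a1, Rplp1, Rpl8, Eef2 and Rplp0 of the translation machinery, S100a6, the ferritin chain Fth1, Actb and the row named Mir682. That row is a microRNA locus whose exon lies wholly within Gm4149 on the same strand, so its 1509.5 ± 356 RPKM cannot be assigned to the microRNA. Eef1a1, Rplp1 and Rplp0 share 49.8%, 75.0% and 42.8% of their 31-base stretches with transcripts of other genes, and their levels are uncertain for that reason.

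Markers of mesothelium and ovarian surface epithelium were expressed almost throughout. Of the 20 genes that have a row 17 were above the limit, 85% beside the 47.6% of all symbols. Wt1, the transcription factor that marks coelomic epithelium, was at 256, 522, 726 and 661 CPM. Upk3b, a uroplakin of the mesothelial membrane, reached 319, 852, 1408 and 1263 CPM. Set 1 was the lowest library for both genes. Mesothelin, the product of Msln, was at 48.2, 69.7, 133 and 162 CPM, and the leucine-rich membrane protein Lrrn4 was at 21.6, 90.5, 147 and 130.1 CPM. Gpm6a, a neuronal membrane glycoprotein also found in mesothelium, was at 42.0, 253, 323 and 277 CPM. Set 1 was again lowest for each of these genes, and it was the lowest library for 13 of the 17 markers with a mean of 1 CPM or more, against 46.8% of all such genes. In bulk RNA, fewer cells of a type and less RNA per cell cannot be told apart. Nr5a1, a transcription factor that drives steroid synthesis, was at 77.6, 84.4, 78.2 and 68.3 CPM. The zinc finger factors Gata4 and Gata6 were at 68.5, 108, 97.9 and 90.8 CPM and at 129, 225, 195 and 184 CPM. Lhx9, a factor of the gonadal ridge, was at 2.69, 3.26, 2.33 and 4.04 CPM. Of the retinaldehyde dehydrogenases, which make retinoic acid, Aldh1a1 was at 66.7, 176, 269 and 205 CPM and Aldh1a2 at 22.8, 71.4, 62.5 and 53.1 CPM. Among simple keratins, Krt19 was at 106 ± 69.6 RPKM, Krt8 at 73.6 ± 14.7 RPKM and Krt18 at 54.9 ± 24.7 RPKM. Krt19 exceeded Krt8 per length in Sets 2, 3 and 4 but not in Set 1, where the ratio was 0.396, and 32.3% of the 31-base stretches of Krt8 occur in other transcripts. Krt7 stayed below 2 CPM in every library, with 0.201, 0.105, 1.95 and 0.248 CPM, and neither Calb2 nor Tcf21 had a count. The label of ovarian surface epithelium thus had its markers present apart from these 3 genes.

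**Figure D1:**
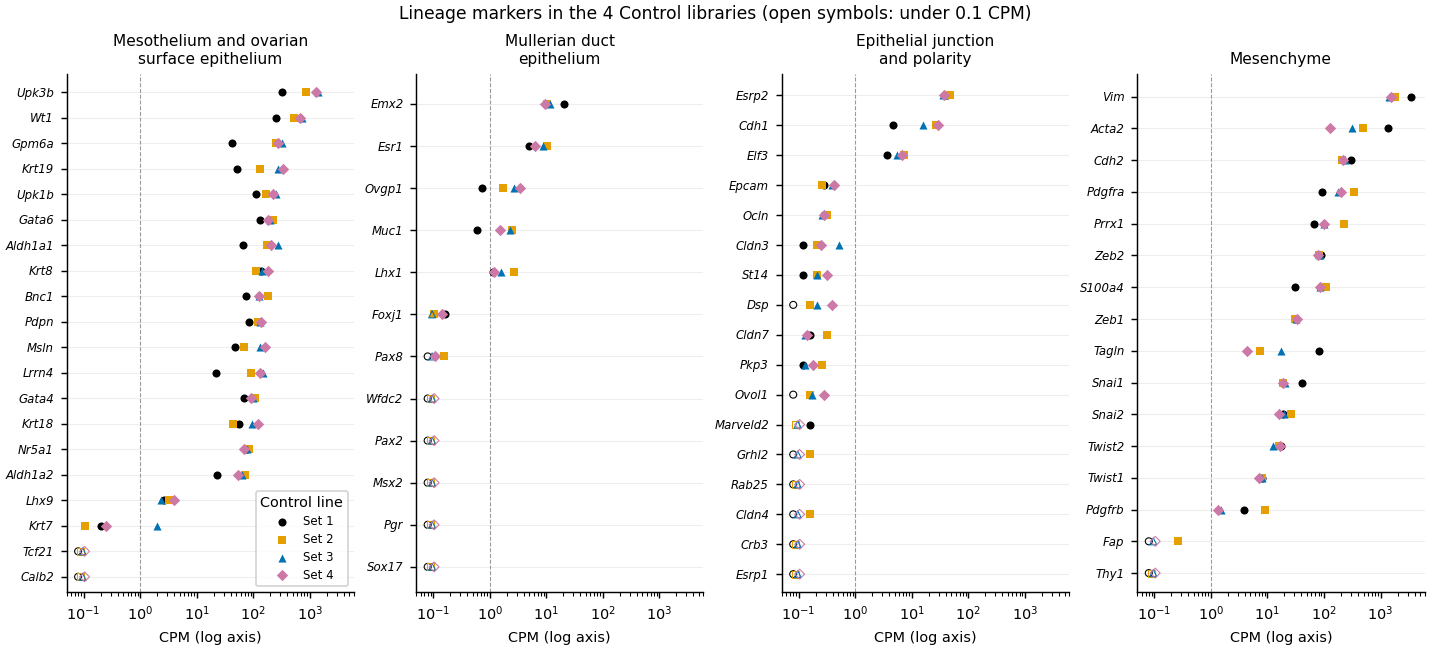
CPM (log axis) of the markers of 4 tissue types, with 1 symbol for each Control library and open symbols below 0.1 CPM, and the dashed line at 1 CPM. Most markers of the surface epithelium and of mesenchyme lie to the right of the line, whereas only 3 of 12 Müllerian and 3 of 17 junction genes do so in all 4 libraries, and Set 1 is the leftmost symbol for Upk3b, Wt1, Gpm6a and Lrrn4.

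Of 12 Müllerian duct markers 3 were expressed, 25% beside the 47.6% of all symbols, and 5 stayed below 0.1 CPM in every library. Without the Set 1 library, or at a limit of 0.5 CPM, 5 were expressed, and at 1 RPKM 1 was. Pax2, Msx2 and Pgr, the progesterone receptor, had no count or stayed below 0.1 CPM, as did Sox17 and Wfdc2, and Pax8 was at 0, 0.158, 0 and 0.106 CPM. The expressed gene Emx2, a homeobox gene of the urogenital tract, was at 20.7, 10.4, 11.5 and 9.47 CPM, highest in Set 1. The estrogen receptor Esr1 was at 5.02, 10.1, 8.73 and 6.42 CPM and the homeobox gene Lhx1 at 1.12, 2.73, 1.57 and 1.17 CPM. The oviduct glycoprotein Ovgp1 and the mucin Muc1 were near the limit, with means of 2.12 and 1.73 CPM and the lowest value of each in Set 1. Of Ovgp1, 28.7% of the exon bases also belong to Gm42890 on the same strand.

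Genes of epithelial junctions and polarity were sparse, with 3 of 17 expressed, 17.6% beside the 47.6% of all symbols. Cdh1, which encodes E-cadherin, was at 4.74, 26.3, 15.9 and 28.5 CPM, lowest in Set 1. The splicing regulator Esrp2 was at 41.0, 47.4, 35.1 and 37.7 CPM, while its relative Esrp1 stayed below 0.1 CPM in every library. Elf3, an epithelial transcription factor, was at 3.57, 7.36, 5.42 and 6.74 CPM. Epcam, an adhesion molecule of most simple epithelia, reached at most 0.425 CPM, and the tight junction gene Ocln at most 0.316 CPM. The desmosomal gene Dsp, the claudins Cldn3, Cldn4 and Cldn7 and the transcription factors Grhl2 and Ovol1 stayed at or below 0.508 CPM.

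Mesenchymal genes were expressed more fully, 14 of 16, which is 87.5% beside the 47.6% of all symbols. Vim, the intermediate filament vimentin, was at 3467, 1818, 1414 and 1521 CPM, and per length it exceeded Krt8 by 3.45- to 10.4-fold within a library. Acta2, smooth muscle actin, was at 1355, 485, 309 and 128 CPM, and Tagln, an actin-binding protein of smooth muscle, at 81.4, 7.47, 17.1 and 4.29 CPM. Both were highest in Set 1 and lowest in Set 4, with ratios of 10.6 and 19. Of the exon bases of Tagln, 67.9% also lie in Gm48529 on the opposite strand, and whether the libraries kept strand is not given in the sources used here. The repressors of E-cadherin were all expressed, and Snai2, at 18.7, 25.8, 19.4 and 16.0 CPM, varied by 1.62-fold. Twist1 was at 8.11, 7.94, 8.14 and 7.13 CPM. Zeb1 was at 31.9, 30.8, 32.4 and 33.2 CPM and Zeb2 at 89.3, 82.7, 84.7 and 77.9 CPM, and these 3 genes varied less than Snai2. Snai1 was at 40.8, 18.8, 20.7 and 18.6 CPM, highest in Set 1. Pdgfra was at 91.2, 345, 177 and 202 CPM, whereas Pdgfrb was at 3.81, 9.05, 1.48 and 1.31 CPM, and S100a4 was at 30.5, 109, 84.2 and 85.0 CPM with 51.7% of its exon bases shared with Gm42674. Thy1 and Fap, which mark fibroblasts of many tissues, stayed at or below 0.263 CPM.

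Markers of other tissues were nearly all below the limit, which 47.6% of all symbols met. None of the 12 leukocyte markers was expressed, their summed level was 0.562, 1.84, 0.763 and 0.496 CPM, and the most abundant was Csf1r at no more than 0.526 CPM. Ptprc, which marks all leukocytes, stayed below 0.1 CPM in every library. Of 11 endothelial genes only Esam and Egfl7 were expressed, with Esam, an adhesion molecule of endothelial junctions, at 22.8, 39.7, 51.6 and 53.2 CPM, while Cdh5, Tek, Tie1 and Erg stayed below 0.1 CPM. The summed endothelial level was 26.5, 43.0, 54.4 and 54.9 CPM, most of it Esam. None of the 6 neuronal, 5 adipocyte, 7 skeletal muscle and 6 pluripotency markers was expressed, and the summed neuronal level was at most 1.06 CPM. Of 5 hepatocyte markers Afp alone was expressed. Their summed level was 2.45, 1.95, 17.8 and 34.9 CPM, and the liver genes of Sets 3 and 4 are described below. Of the erythroid genes, Klf1 was at 0.803, 1.63, 1.10 and 1.17 CPM and the globin genes Hba-a1 and Hbb-b1 were not detected. Of 14 genes of follicle and germ cells, Star, which moves cholesterol into the mitochondrion for steroid synthesis, was expressed at 8.67, 25.8, 36.9 and 28.1 CPM. Amhr2, the receptor of anti-Müllerian hormone, was at 0.642, 20.8, 11.7 and 13.8 CPM, below the limit in Set 1 only. The follicle genes Foxl2 and Amh reached at most 0.522 and 0.158 CPM, and Fshr and Cyp19a1 stayed below 0.1 CPM. Xist was at 329, 428, 440.3 and 616 CPM, and the Y-linked genes Ddx3y, Eif2s3y, Kdm5d and Uty stayed at or below 0.142 CPM.

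**Figure D2:**
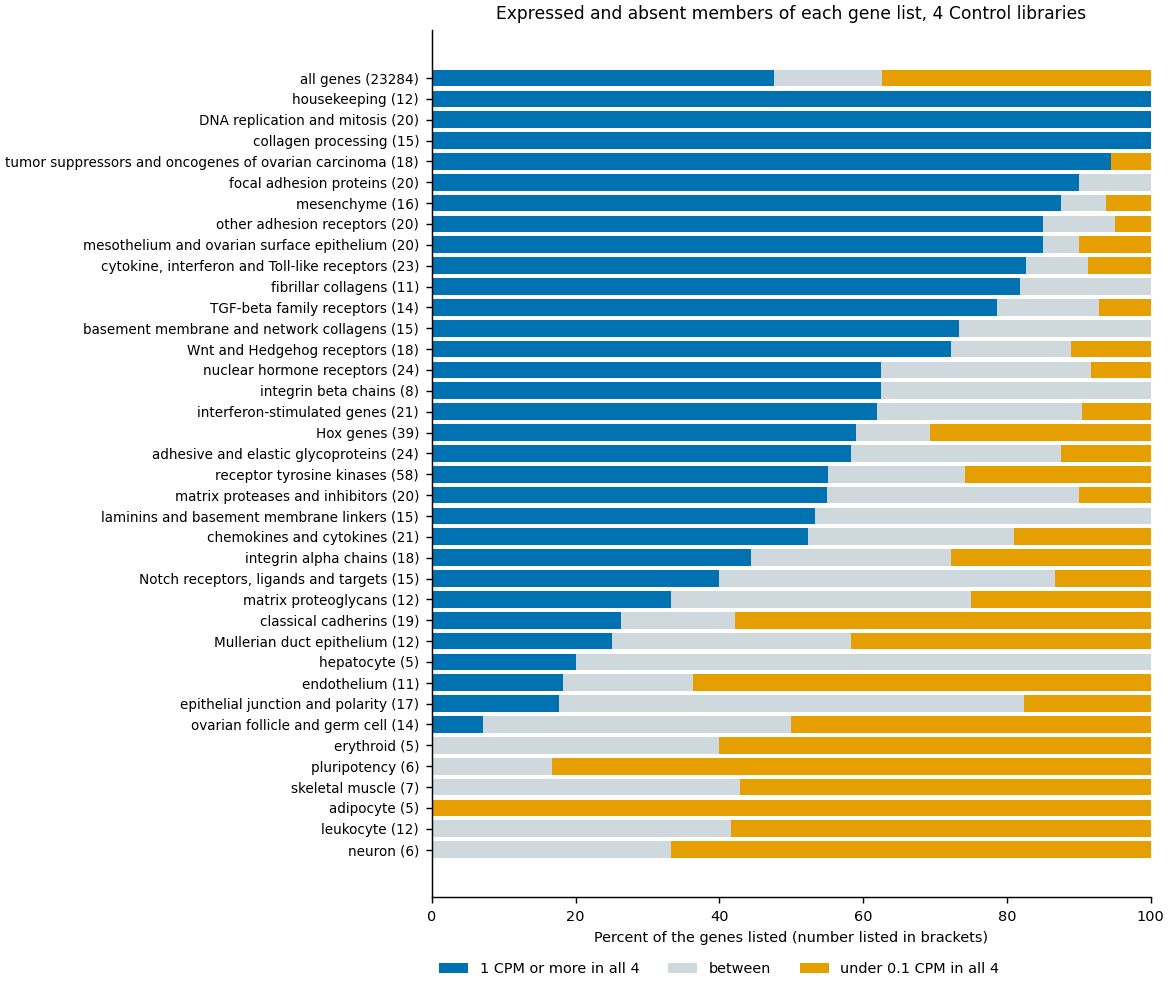
Share of each gene list (percent of the genes listed, whose number is in brackets) at 1 CPM or more in all 4 Control libraries, under 0.1 CPM in all 4, or between. The top bar holds all 23284 symbols, of which 47.6% were expressed, the lists of replication, collagen processing and housekeeping genes reach 100%, and those of leukocytes, neurons, adipocytes, skeletal muscle, pluripotency and erythroid cells are at 0.

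The Hox genes, which set position along the body axis, divided by cluster. The 23 expressed genes of 39, 59.0% beside the 47.6% of all symbols, lay in the Hoxa, Hoxc and Hoxd clusters, among them Hoxc4 to Hoxc11 and Hoxd3 to Hoxd11. All 10 genes of the Hoxb cluster stayed at or below 0.201 CPM. The highest per length were Hoxd9 at 10.9 ± 1.20 RPKM, Hoxd8 at 10.2 ± 1.01 RPKM and Hoxc10 at 9.72 ± 1.40 RPKM. Hoxd3 and Hoxd4 have 62.9% and 52.3% of their exon bases in Gm28230 on the same strand.

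Among transcripts of matrix proteins, those of Sparc, Col1a1 and Fn1 had the highest levels per length, with 767 ± 119 RPKM, 574 ± 217 RPKM and 516 ± 76.2 RPKM. Fn1, which encodes fibronectin, was at 6329, 5268, 7161 and 5376 CPM, and Col1a1, a chain of type I collagen, at 5674, 3986, 2999 and 2415 CPM. Sparc, which binds collagen, was at 2354, 3239.9, 3308 and 2723 CPM. Col1a1 was highest in Set 1 and lowest in Set 4, whereas Fn1 and Sparc were highest in Set 3. Of 11 fibrillar collagen genes 9 were expressed, 81.8% beside the 47.6% of all symbols, or 5 at a limit of 1 RPKM. They were led per length by Col1a1, Col5a1 at 78.2 ± 32.4 RPKM and Col1a2 at 65.2 ± 23.9 RPKM. With the longest transcript as the length, Col1a2 was at 152 RPKM and Col5a1 at 79.0 RPKM, so their order depends on the length used. Col5a1 was at 1073, 542, 559.7 and 482 CPM, highest in Set 1. Col1a1 exceeded Col3a1 by 15.3- to 30.8-fold per length within a library, and the cartilage collagen Col2a1 stayed at or below 0.120 CPM. Set 1 was the highest library for 5 of the 9, against 28.6% of all genes with a mean of 1 CPM or more. Set 4 was the lowest for 7 of the 9, against 15.3%.

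Collagens of basement membranes and networks were expressed in 11 of 15 cases, 73.3% beside the 47.6% of all symbols, or in 7 at a limit of 1 RPKM. Of the 11, 5 were variable, against 4.16% of the 11579 genes with a mean of 1 CPM or more. Variable means at least 4-fold apart between the highest and the lowest library. Col6a1 was at 212, 1149, 736 and 738 CPM and Col6a2 at 96.9, 543, 303 and 307 CPM, both lowest in Set 1. Col6a3, the third chain of type VI collagen, was at 32.7, 15.8, 1.82 and 1.63 CPM, highest in Set 1. The ratio of Col6a1 to Col6a2 per length was 4.02 to 4.62 in the 4 libraries. The type IV chains were Col4a1 at 48.5 ± 13.7 RPKM, Col4a5 at 44.1 ± 9.65 RPKM, Col4a2 at 42.9 ± 9.31 RPKM and Col4a6 at 18.4 ± 6.20 RPKM, while Col4a3 and Col4a4, the chains of the mature glomerulus, stayed at or below 0.263 CPM.

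Of the laminins and basement membrane linkers 8 of 15 were expressed, a share near the 47.6% of all symbols. Perlecan, the product of Hspg2, was at 81.0 ± 18.9 RPKM, and the laminin chain Lamc1 was at 479, 439, 472 and 475 CPM, nearly the same in every line. Lamb2 was at 63.3, 142, 136 and 142 CPM, lowest in Set 1. Per length Lamb2 was at 19.9 ± 6.33 RPKM, Lama5 at 12.0 ± 6.57 RPKM and Lamb1 at 11.9 ± 2.62 RPKM, after Lamc1 the leading laminin chains. The nidogens Nid1 and Nid2, which link laminin to type IV collagen, stayed below 1 CPM, as did Lama1 and Lama2. Of 12 proteoglycan core proteins 4 were expressed, 33.3% beside 47.6%. Biglycan (Bgn) was at 702, 706, 389 and 321 CPM and decorin (Dcn) at 40.9, 346, 382 and 274 CPM, with Dcn lowest in Set 1. Versican (Vcan) was at 158, 154, 106 and 121 CPM, and the cartilage proteoglycan Acan stayed below 0.1 CPM.

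Among 24 adhesive and elastic glycoproteins 14 were expressed, 58.3% beside the 47.6% of all symbols. Osteopontin (Spp1) was at 207, 442, 541 and 443 CPM. Fibulin 2 (Fbln2) was at 2112, 859.9, 734 and 589 CPM and thrombospondin 1 (Thbs1) at 762, 312, 152 and 171 CPM. Fbln2 and Thbs1 were highest in Set 1, where Spp1 was lowest. Tenascin C (Tnc), a matrix protein of wounds and tumors, was at 45.5, 162, 52.6 and 33.0 CPM, highest in Set 2. The 15 genes that hydroxylate, fold, trim or crosslink collagen were all expressed. P4hb, Serpinh1 and the lysyl oxidase Lox led them per length, Lox at 143 ± 29.0 RPKM. Of the proteases and inhibitors, Timp2 was at 255 ± 51.5 RPKM, Timp3 at 248 ± 58.5 RPKM and Timp1 at 113 ± 47.9 RPKM, above the membrane protease Mmp14 at 40.4 ± 5.63 RPKM. Of the gelatinases, Mmp2 was at 3.13, 1.21, 0.678 and 0.532 CPM, highest in Set 1, and Mmp9 stayed below 0.1 CPM.

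**Figure D3:**
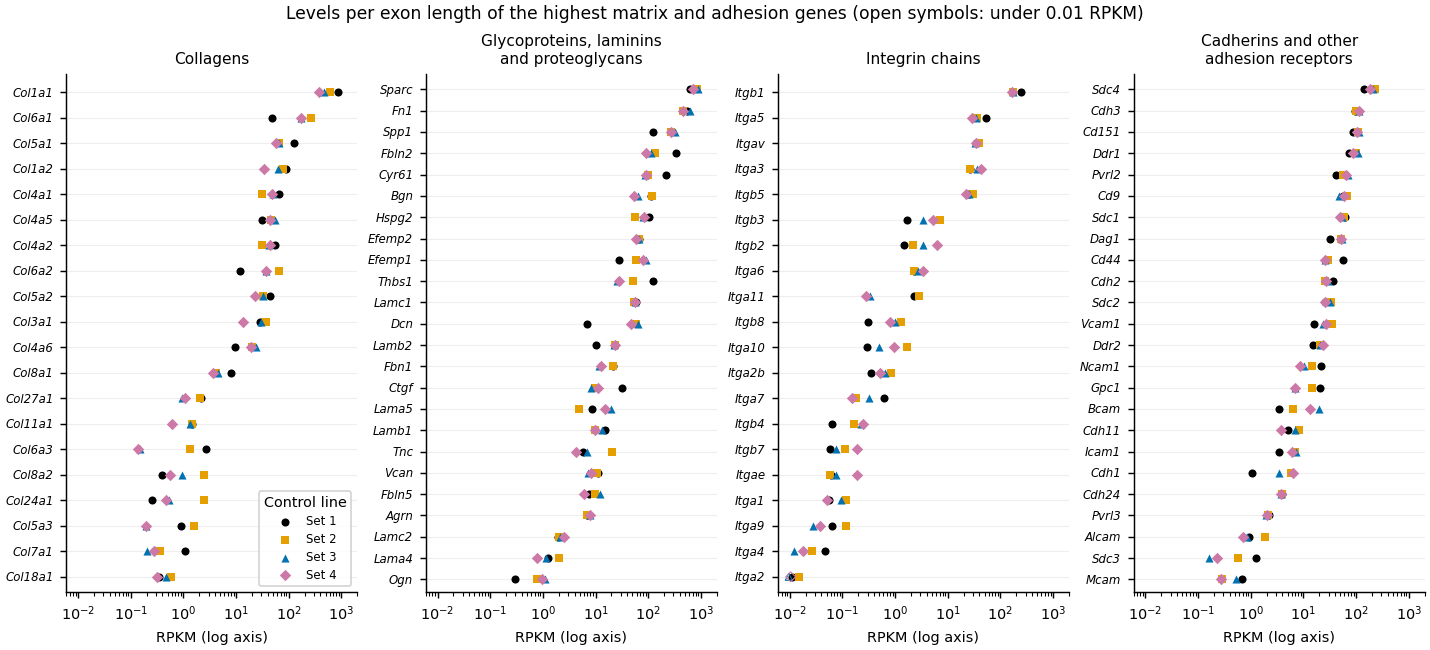
Levels per exon length (RPKM, log axis) of the highest collagens, other matrix genes, integrin chains and adhesion receptors, with 1 symbol for each Control library. Sparc, Col1a1 and Fn1 lie highest among matrix genes and Itgb1 among integrin chains, and Col6a1, Col6a2 and Dcn have Set 1 to the left of the other 3 lines.

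Integrins are receptors of an alpha and a beta chain, and 8 of 18 alpha and 5 of 8 beta chains were expressed, where all symbols gave 47.6%. At a limit of 2 CPM, or of 1 RPKM, 4 of the 18 alpha chains were expressed. Itgb1, the partner of most alpha chains, was at 1027, 696, 714 and 680.1 CPM and exceeded Itgb5 per length by 5.74- to 10.1-fold. The leading alpha chains were Itga5 and Itgav, which bind fibronectin and other RGD proteins, and Itga3, which binds laminin. Itga5 was at 262, 176, 168 and 144 CPM, highest in Set 1. Itgav was at 364, 425, 353 and 363 CPM and Itga3 at 149.8, 153, 203 and 247 CPM, highest in Sets 2 and 4. Their mean levels per length were 38.1 ± 10.4 RPKM, 35.0 ± 3.08 RPKM and 32.9 ± 8.07 RPKM, closer together than their spread, and Itgav exceeded Itga5 in 2 of the 4 libraries. Of the chains that bind collagen, Itga1 was at 1.04, 2.21, 1.78 and 0.957 CPM, Itga11 at 11.7, 14.8, 1.74 and 1.45 CPM, Itga10 at 1.53, 8.63, 2.54 and 4.89 CPM, and Itga2 stayed at or below 0.105 CPM. The leukocyte chains Itgal, Itgam, Itgax and Itgad stayed below 0.1 CPM, although their partner Itgb2 was at 4.46, 6.78, 10.6 and 19 CPM. The lines also held the machinery of focal adhesions, with 18 of 20 genes expressed, led by the actin crosslinker Flna at 194 ± 34.7 RPKM.

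Of 19 classical cadherins 5 were expressed, 26.3% beside the 47.6% of all symbols, and 11 stayed below 0.1 CPM in all 4 libraries. Cdh3, which encodes P-cadherin, was at 421, 431, 496 and 495 CPM, and N-cadherin (Cdh2) at 296, 208, 237 and 221 CPM. Per length Cdh3 exceeded Cdh2 by 2.62- to 4.13-fold and Cdh2 exceeded Cdh1 by 4.38- to 35.5-fold, in each case with the same order in 4 of 4 libraries. Of 20 other adhesion receptors 17 were expressed, 85% beside 47.6%. The syndecan Sdc4 was at 193 ± 37.6 RPKM, the tetraspanin Cd151 at 104 ± 11.1 RPKM and the collagen receptor Ddr1 at 93.2 ± 16.3 RPKM. Cd44, a hyaluronan receptor, was at 383, 201, 171 and 173 CPM, highest in Set 1, and Bcam, a laminin receptor, at 10.9, 20.6, 64.2 and 42.4 CPM, lowest in Set 1.

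Of 58 receptor tyrosine kinases 32 were expressed, a share of 55.2%, near the 47.6% of all symbols. Axl, the receptor of Gas6, led per length with 95.4 ± 18.3 RPKM, followed by Ddr1 at 93.2 ± 16.3 RPKM, the hepatocyte growth factor receptor Met at 61.9 ± 13.7 RPKM and Ptk7 at 55.0 ± 9.27 RPKM. The order of Axl and Ddr1 changed between libraries, with Axl higher in Set 1 only, and Axl was at 617, 439, 419 and 445 CPM. Flt4, a receptor of lymphatic growth factors, was at 74.0, 254, 384 and 253 CPM and was 1 of the 2 variable kinases, the other being Pdgfrb. These were 5.88% of the 34 kinases with a mean of 1 CPM or more, near the 4.16% of all such genes. Egfr was at 99.6, 137, 129 and 124 CPM and Erbb2 at 46.5, 50.8, 45.8 and 45.0 CPM. Kit, Csf1r and Kdr stayed at or below 0.674 CPM, and 15 of the 58 stayed below 0.1 CPM, among them Flt3, Ros1, Alk and the Trk receptor Ntrk3.

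The receptors of the TGF-beta family were expressed in 11 of 14 cases, 78.6% beside the 47.6% of all symbols. The type I receptor Bmpr1a was at 28.8 ± 3.49 RPKM and the TGF-beta receptors Tgfbr2 and Tgfbr1 at 18.9 ± 2.35 RPKM and 8.86 ± 0.663 RPKM. In the Notch pathway the dominant receptor was Notch2 at 323, 279, 242 and 269 CPM, which exceeded Notch1 per length by 132- to 234-fold. Notch3, whose intracellular domain is expressed in the other lines, was at 1.57, 1.79, 3.14 and 1.88 CPM in these Control libraries. Notch3 thus met the limit for an expressed gene in every library. Notch1 was at 2.17, 1.58, 2.42 and 2.38 CPM and Notch4 stayed below 1 CPM. By RT-PCR of this cell line, the paper found little to no Notch3 RNA and detected Notch4. Here Notch3 was above Notch4 in every library, and the reason for this difference was not tested. Whether the Notch3 reads come from the cells of these lines was not tested either. The ligand Jag1 was at 36.8, 19.4, 20.6 and 22.3 CPM, highest in Set 1. The nuclear partner Rbpj was at 54.4, 48.2, 54.0 and 55.3 CPM and the target Hes1 at 25.9, 15.7, 19.8 and 19 CPM. The targets Hey2 and Heyl and the ligand Dll4 stayed at or below 0.177 CPM.

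Receptors of Wnt and Hedgehog ligands were expressed in 13 of 18 cases, led by Smo, the signal transducer of Hedgehog, at 50.5 ± 5.35 RPKM, and the Wnt receptors Fzd2 and Fzd7 at 21.5 ± 7.21 RPKM and 17.3 ± 3.87 RPKM. Lgr5, a receptor of R-spondins that marks cells of the ovarian surface, was at 1.41, 27.1, 15.2 and 9.36 CPM, lowest in Set 1. Nuclear receptors were expressed in 15 of 24 cases, 62.5% beside 47.6%, led by the retinoic acid receptor Rarg at 24.5 ± 2.35 RPKM. The glucocorticoid receptor Nr3c1 was at 95.1, 137, 99.7 and 111 CPM, while the second estrogen receptor, Esr2, stayed at or below 0.201 CPM.

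Receptors of cytokines, interferons and Toll-like ligands were expressed in 19 of 23 cases. The tumor necrosis factor receptors Tnfrsf1a and Tnfrsf1b were at 82.6 ± 21.6 RPKM and 65.4 ± 20.6 RPKM, and Il6st, the shared chain of the interleukin 6 family, at 20.8 ± 3.65 RPKM. Set 1 was the lowest library for 14 of the 19 and Set 2 the highest for 14, against 46.8% and 29.6% of all genes. Tlr2, which recognises bacterial lipopeptides, was at 7.39, 12.0, 8.43 and 8.72 CPM and Tlr4 at 8.59, 33.9, 21.0 and 25.6 CPM. Of 21 chemokines and cytokines 11 were expressed, a share of 52.4%, near the 47.6% of all symbols. Cxcl12, which attracts cells with the receptor Cxcr4, was at 1015, 821, 459 and 434 CPM. Csf1, the growth factor of macrophages, was at 608, 631, 705 and 622 CPM, nearly the same in every line. The neutrophil chemokine Cxcl5 was at 107, 1026, 306 and 328 CPM. Cxcl5 and Cxcl1, at 49.1, 299, 197 and 194 CPM, were lowest in Set 1 and highest in Set 2. Ccl2 was at 33.3, 85.8, 79.3 and 90.0 CPM, while Il6 reached at most 0.321 CPM and Il1b, Tnf and Csf2 stayed below 0.1 CPM. Of 21 interferon-stimulated genes 13 were expressed, 61.9% beside 47.6%, led per length by Irf1 at 18.1 ± 4.71 RPKM. Irf1 was at 44.1, 77.3, 82.9 and 83.3 CPM, lowest in Set 1, and Mx1 and Oas2 stayed below 0.1 CPM.

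The 20 genes of DNA replication and mitosis were all expressed, where all symbols gave 47.6%. Mki67, a marker of cycling cells, was at 800.0, 705, 775 and 978 CPM, and Top2a, which untangles DNA in mitosis, at 1208, 997, 1254 and 1364 CPM. Set 2 was the lowest library for 18 of the 20, against 22.8% of all genes. Of 18 tumor suppressors and oncogenes of ovarian carcinoma 17 were expressed. Trp53, which encodes p53, was at 290.4, 183, 188 and 188 CPM, and Myc was at 141, 76.6, 74.1 and 85.0 CPM. Both were highest in Set 1. Brca1, a DNA repair gene, was at 106, 101, 129 and 124 CPM. The exception was Cdkn2a, the locus of p16 and p19Arf, which had no count in any of the 4 libraries. Counts per gene carry no sequence, so they show nothing of variants in these genes.

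Most genes varied little between the lines. The ratio of the highest to the lowest library had a median of 1.38 over the 11579 genes with a mean of 1 CPM or more, and 61.7% of them were within 1.5-fold. A total of 482 genes were variable at 4-fold or more. The median coefficient of variation of expressed genes was 13.7%, against 3.15% from counting alone. The common biological coefficient of variation, the spread between libraries beyond counting error as estimated by edgeR, was 22.6%. Without the Set 1 library the coefficient was 14.5% and 112 genes were variable, whereas leaving out Set 2, 3 or 4 gave 23.5% to 25.4% and 334 to 441 variable genes. The median of the coefficients of single genes, with all 4 libraries, was lower than the common one, 18.5% with edgeR and 16.8% with DESeq2.

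The pairwise values showed the same order. Sets 3 and 4 had a Pearson correlation of 0.995 across the 11080 expressed genes on the log2(CPM + 1) scale and differed by 2-fold or more in 80 of the 11579 genes with a mean of 1 CPM or more. Set 2 correlated with Sets 3 and 4 at 0.985 and 0.984, with 430 and 445 of the 11579 genes 2-fold apart. Set 1 correlated with the other 3 at 0.959 to 0.962, with 1183 to 1274 genes 2-fold apart. Correlations across genes are a description, since genes are not replicates. As a check for repeated libraries, the chi-square per gene was 14.6 for Sets 3 and 4, where counting error alone gives a value near 1, and the 4 libraries were counted as 4 samples.

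A line was called apart for a gene when it lay at least 2-fold beyond the nearest of the other 3 lines. Set 1 was apart in 137 genes upward and 552 downward, 1.18% and 4.77% of the genes. With TMM scaling these counts were 181 and 448. The ribosomal RNA precursor Rn45s, which is not polyadenylated as a rule and marks leftover ribosomal RNA, took 0.744, 0.487, 0.380 and 0.303% of the counts of Sets 1 to 4, and genes with at least 1 count numbered 14430, 14798, 14978 and 15257. Set 1 was thus highest in the first and lowest in the second, and the part of either in its differences was not tested. Set 2 was apart in 115 upward and 20 downward, 0.993% and 0.173%, and without the Set 1 library in 192 and 102. Set 3 was apart in 5 and 7 genes, 0.0432% and 0.0605%, and Set 4 in 5 and 15, 0.0432% and 0.13%. These 2 lines lay nearest to each other, and without the Set 3 library Set 4 was apart in 78 genes upward and 109 downward, and without the Set 4 library Set 3 was apart in 86 and 80. Scaled by total counts, the median gene of Set 1 lay -0.10 from the median of the other lines on the log2 scale, and with TMM scaling 0.01.

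**Figure D4:**
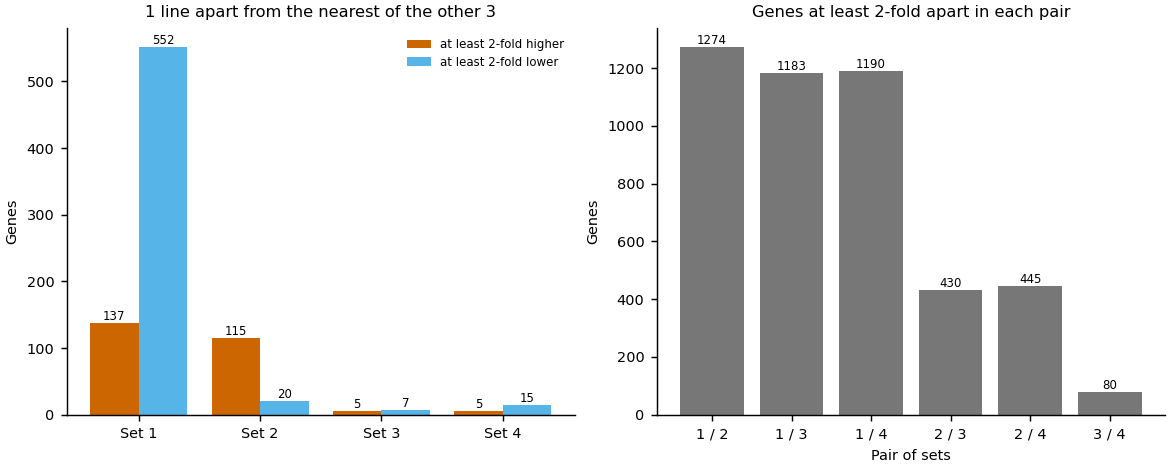
Left, number of genes in which 1 Control line was at least 2-fold higher or lower than the nearest of the other 3, by set. Right, number of genes at least 2-fold apart in each pair of sets, which is 1183 to 1274 for pairs with Set 1 and 80 for Sets 3 and 4.

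The genes named for a line are those with the widest gap among genes with a mean of 5 CPM or more. Downward from the other lines, Set 1 was farthest apart in 4930594C11Rik, Aldoart2, Angptl7, Olfr1033 and Amhr2. Aldoart2, a retrogene of aldolase A, was at 0.723, 75.4, 35.4 and 32.0 CPM, 44.3-fold below the nearest other line. Angptl7, a secreted angiopoietin-like protein, was at 0.281, 6.42, 8.73 and 9.04 CPM, and the odorant receptor gene Olfr1033 at 0.803, 17.9, 31.7 and 24.9 CPM. 4930594C11Rik had 2 counts in Set 1 and was at 6.36 to 7.27 CPM elsewhere, at least 52.8-fold higher. It has 51.3% of its exon bases in Gm43213 on the same strand. Upward, Set 1 was farthest apart in Rps7, Rps10, Sema4f, Rpl35 and Rps28. Rps7, a protein of the small ribosomal subunit, was at 84.7, 7.00, 4.15 and 5.07 CPM and Rps10 at 48.3, 4.73, 3.64 and 4.29 CPM. The ribosomal protein genes Rps7 and Rpl35 share 30.5% and 32.9% of their 31-base stretches with other transcripts, and Rpl35 overlaps Wdr38 over 66.2% of its exon bases on the opposite strand. A set of 85 genes was taken by symbols that open with Rpl or Rps and a digit. This pattern leaves out Rplp0 and Rplp1 and can take in kinase genes of the Rps6k family. Over the 85 genes the median log2 difference of Set 1 from the median of the other lines was 0.30, where all genes gave -0.10. Of them 14 were apart upward, where all genes gave 1.18%. The part of reads shared with near copies in this was not tested. Sema4f, a semaphorin with 0.414% of such stretches, was at 29.0, 3.89, 3.64 and 2.94 CPM.

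The surface epithelium genes Wt1, Upk3b, Lrrn4, Gpm6a, Aldh1a1, Aldh1a2 and Krt19 were apart downward in Set 1, 7 of 17 against 4.77% of all genes. Among 14 mesenchyme genes Acta2 and Tagln were apart upward and S100a4 downward. Of the adhesive glycoproteins 4 were apart upward, Thbs1, Fbln2 and the matricellular genes Cyr61 and Ctgf, and 3 downward, Spp1 among them. Of the network collagens 2 were apart upward, with Col6a3, and 3 downward, Col6a1, Col6a2 and Col4a6. Of the proteoglycans 3, with Dcn, and of the laminin list Lamb2 alone were apart downward, and none was apart upward. Set 1 was also apart only downward in 3 of 6 integrin beta chains, in 4 of 13 interferon-stimulated genes and in 3 of 11 chemokines and cytokines, namely Ccl2, Cxcl1 and Cxcl5. Among 34 receptor tyrosine kinases 3 were apart, all downward, a share closer to the 4.77% of all genes. Among 19 focal adhesion genes Tns1 alone was apart in Set 1, upward, and among 19 other adhesion receptors Sdc3 alone, also upward. A single gene gives no direction for its list. Over all genes 1.18% were apart upward in Set 1 and 4.77% downward. Cyr61 was at 443, 203, 177 and 183 CPM and Ctgf at 90.8, 28.5, 23.1 and 31.6 CPM. The X chromosome had a median log2 difference of -0.14 in Set 1 over 347 expressed genes, beside -0.04 to 0.03 for the autosomes, and 0.00 to 0.02 in the other lines.

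Set 2 held transcripts of proteins that the seminal vesicle secretes into semen. Svs2 was at 0, 138, 0 and 0 CPM and Svs5 at 0, 133, 0 and 0 CPM. Svs4 was at 0, 109.7, 0 and 0 CPM and Svs1 at 0, 61.7, 0 and 0 CPM. The other lines had no count of these 4 genes, so Set 2 was at least 1082-, 1043-, 863- and 486-fold above a floor of 3 counts in the nearest of them. The 11 secretions of the seminal vesicle and prostate that were followed up, chosen after these values were seen, had summed levels of 0.0401, 508, 0.127 and 0 CPM. Outside this family Set 2 was farthest apart upward in D0H4S114, an older symbol of Nrep, at 2.77, 35.6, 4.03 and 4.75 CPM, and downward in Pdgfb, a ligand of the PDGF receptors, at 12.0, 2.47, 11.5 and 14.6 CPM. Whether these reads come from the cells of the Set 2 line was not tested, and with 1 library the line and the library cannot be told apart.

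Sequence upstream of the seminal vesicle genes is shown because 4 of them, in neighbouring positions of chromosome 2, appeared together in a single library. Svs1, Svs3a and Svs3b, also apart upward in Set 2, are not shown, so the windows cover only part of the family. The 60 bases before each gene's start are from RefSeq (GRCm38.p6), 5′ to 3′ on the strand of the gene, with TATAAA in capitals. The window of Svs4 is chr2:164278308-164278367 on the minus strand, that of Svs5 is chr2:164332705-164332764 and that of Svs6 is chr2:164316691-164316750 on the plus strand, and that of Svs2 is chr2:164238342-164238401 on the minus strand. The window of Vim, high in every line, is chr2:13574251-13574310, and that of Upk3b is chr5:136038436-136038495, both on the plus strand.
Svs4: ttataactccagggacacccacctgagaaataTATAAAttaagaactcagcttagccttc
Svs5: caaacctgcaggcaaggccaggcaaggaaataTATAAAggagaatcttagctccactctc
Svs6: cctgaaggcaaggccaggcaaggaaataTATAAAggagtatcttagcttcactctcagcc
Svs2: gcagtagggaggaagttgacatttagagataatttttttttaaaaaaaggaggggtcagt
Vim: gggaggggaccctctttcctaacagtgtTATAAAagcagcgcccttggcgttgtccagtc
Upk3b: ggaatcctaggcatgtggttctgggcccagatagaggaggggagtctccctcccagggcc
TATAAA stands in the windows of Svs4, Svs5, Svs6 and Vim, starting 28, 28, 32 and 32 bases before the gene's start, and not in those of Svs2 and Upk3b. Searched on both strands, it occurs in 1289 of 32851 windows of this length, 3.92%. Svs5 and Svs6 share an unbroken run of 33 bases that holds it, and both share 12 bases with Svs4. Svs6 was at 0, 14.1, 0 and 0 CPM, and Vim at 3467, 1818, 1414 and 1521 CPM, so the letters stood both before genes found in a single library and before a gene high in all 4.

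Sets 3 and 4 held liver transcripts. Alb, which encodes serum albumin, was at 0, 0, 14.9 and 28.5 CPM. Gc, the vitamin D binding protein, was at 0, 0, 1.69 and 4.50 CPM. Sets 1 and 2 had no count of either gene. The 12 plasma proteins and liver enzymes that were followed up after these values were seen summed to 0.161, 0.105, 25.1 and 54.7 CPM, and each was higher in Set 4 than in Set 3. The fibrinogen chain Fgb was at 0, 0, 0.805 and 2.48 CPM and Apoa1 at 0.0803, 0.0526, 1.31 and 2.30 CPM. Afp, the fetal albumin gene, did not share the pattern, at 2.37, 1.89, 1.10 and 2.27 CPM. Here too it was not tested whether the reads come from the cells of these lines.

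Set 3 was farthest apart upward in Zbtb8b, at 5.34, 6.68, 37.8 and 17.4 CPM, and downward in Grem1, a BMP antagonist, at 13.0, 8.57, 1.48 and 3.83 CPM. Podxl, a sialomucin of podocytes and mesothelium, was at 194, 380.4, 686 and 342 CPM, highest in Set 3. Upward, no gene with a mean of 5 CPM or more put Set 4 apart by 2-fold, and the widest gaps were those of Alb, 1.92-fold, and of the nuclear RNA Malat1, at 218, 261, 436 and 818 CPM. Set 4 was lowest by the widest gaps in Acta2, Col11a1, Col3a1, Gm2115 and Col1a2. Col3a1 was at 275, 360.0, 293 and 131 CPM and Col1a2 at 1107, 954, 763 and 419 CPM, lowest in Set 4.

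**Figure D5:**
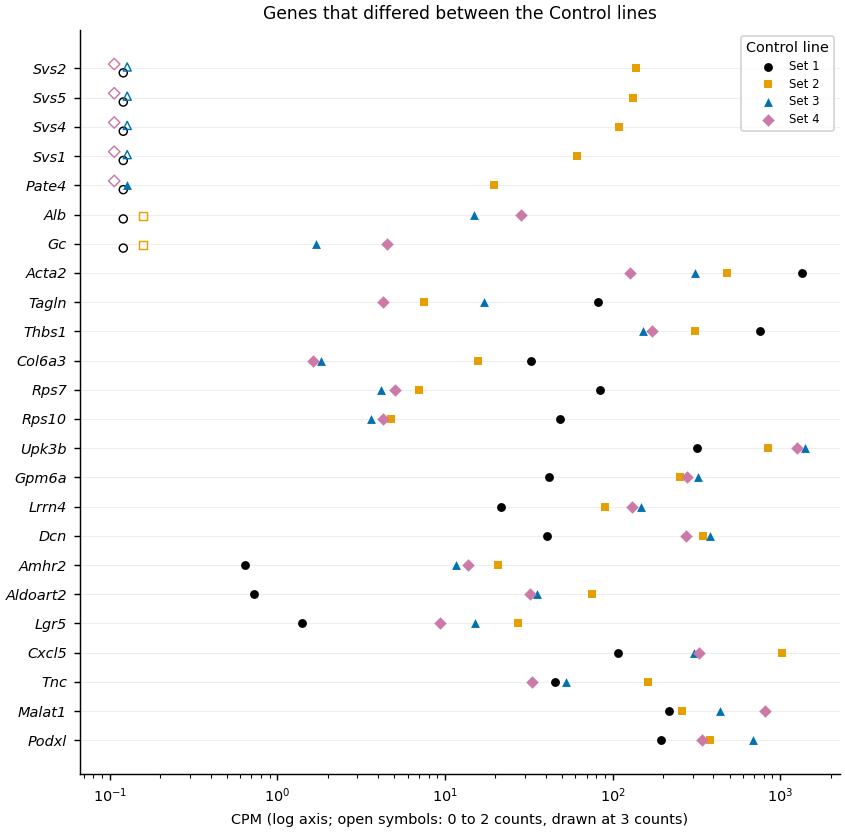
CPM (log axis) of genes that differed between the Control lines, with 1 symbol for each library and open symbols where a library had 0 to 2 counts, drawn at the level of 3 counts. Svs2, Svs5, Svs4 and Svs1 appear in Set 2 only, Alb and Gc in Sets 3 and 4 only, and Set 1 is the rightmost symbol for Acta2, Tagln, Thbs1, Col6a3, Rps7 and Rps10.

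Some genes that every cell uses were listed at low levels. Per length Gapdh was at 2.85 ± 1.37 RPKM and Ppia at 0.910 ± 0.204 RPKM, where Actb was at 763 ± 187 RPKM and Hprt at 68.0 ± 1.52 RPKM. Gapdh and Ppia share 27.2% and 15.9% of their 31-base stretches with other transcripts and have many processed copies in the genome, and the part of this in their low counts was not tested. Genes with 25% or more of their stretches shared were 584 of those with a mean of 1 CPM or more, and their levels are uncertain.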

How the data were processed

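The authors deposited whole-number read counts per gene symbol, 1 table per library. The submitters' notes name TopHat, Cufflinks, DESeq and the mm9 build. Versions, the annotation, the strand setting and the treatment of reads with several matches are not given in the sources used here. The 4 Control libraries were used, all columns were mapped, and the Notch3IC libraries were not analysed here. Depth was 19013578 to 28208072 counted reads.

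CPM was the count over the total on genes. RPKM used the merged exon length of GENCODE M21 (GRCm38), matched by symbol (20882 of 23284 directly, 1943 by synonym), and overlap and shared 31-base stretches came from the same annotation, so that no coordinate was mixed with mm9. Counts of 0 to 2 were set to 3 for ratios. The common coefficient of variation came from edgeR 4.0.16 in R 4.3.3, with DESeq2 1.42.0 as an alternative. Python 3.11.15, NumPy 2.4.6, pandas 2.3.3 and Matplotlib 3.10.9 were used. With a single group, groups were not tested against each other and no p-value is given. Dixon's criterion served only to point out libraries far from the rest of their 4, and a chi-square per gene to check for repeated libraries.

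Named genes were the 3 members of each list with the highest mean RPKM, the most variable member, the markers that define a tissue, the 15 highest genes and, per line and direction, the 5 with the widest gap at a mean of 5 CPM or more, beside Notch3. Other list members were named for their known role after their values were seen. The members and lists were chosen with earlier results of these data known, and the lists of seminal vesicle and liver genes after the values were seen. Some results are not reported here. Alternatives were other limits, scalings and filters, and leaving out each line.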

Additional observations from a re-analysis of the deposited data

Results flagged for a closer look

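Of the 258 genes whose level was examined for a library standing far from the rest (its gap to the nearest library against the range of all 4, by Dixon's 95% critical value), 48 were found. Some of these genes were chosen because a library stood apart, and some rest on 1 count, so their number was not set against chance, which alone gives about 1 in 20 groups. Far here means a gap that is wide against the range of the 4 libraries, which can be a small fold, as for Itgav at 425 CPM in Set 2 and 353 to 364 CPM elsewhere. The odd library was Set 1 for 25 genes, Set 2 for 14, Set 3 for 3 and Set 4 for 6, and each level in CPM of that library follows its gene. The Set 1 library was far above the rest for the matrix, adhesion and signaling genes Axl (617), Cd44 (383), Col5a1 (1073), Ctgf (90.8), Cyr61 (443), Itgb1 (1027), Jag1 (36.8), Snai1 (40.8) and Tagln (81.4). It was also far above the rest for the ribosomal and other genes Eef2 (3614), Gm2115 (14.1), Hoxd9 (27.0), Myc (141), Rpl35 (43.6), Rps10 (48.3), Rps28 (46.6), Rps7 (84.7), Sema4f (29.0) and Trp53 (290.4). It was far below the rest for 4930594C11Rik (0.0803), Irf1 (44.1), Lamb2 (63.3) and S100a6 (959). The Set 2 library was far above the rest for the seminal vesicle genes Svs1 (61.7), Svs2 (138), Svs4 (109.7), Svs5 (133) and Svs6 (14.1), and for D0H4S114 (35.6), Itgav (425) and Tnc (162). Krt7 was far above the rest in Set 3 (1.95), and Col11a1 far below the rest in Set 4 (7.69). The remaining genes were below 1 CPM in every library and rest on few counts, namely Flt3 (0.0401) and Hoxb9 (0.201) in Set 1, Cldn4 (0.158), Esrp1 (0.0526), Grhl2 (0.158), Nid1 (0.579), Nid2 (0.947) and Pax2 (0.0526) in Set 2, Cdh5 (0.0847) and Tnf (0.0424) in Set 3 and Dll4 (0.0355), Itgal (0.0355), Kdm5d (0.0355), Oas2 (0.0355) and Tek (0.0355) in Set 4.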

How the results depend on the processing

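The 11080 expressed genes, the 351 expressed list members, and the X chromosome medians stayed within the limits set for a change, 1.5 times for a count, and no mean level per length moved by more than its SD under TMM scaling. Without the library of Set 1, 2, 3 or 4, 15, 25, 8 and 13 of 256 mean levels per length moved by over 1.5 times, among those of 1 RPKM or more Acta2 (259 to 140), Tagln (13.9 to 4.84), Thbs1 (57.5 to 34.9) and Rps7 (12.5 to 2.68) without Set 1, D0H4S114 (3.02 to 0.985), Cxcl5 (237 to 133) and Tnc (9.42 to 5.62) without Set 2, Zbtb8b (2.59 to 1.51) without Set 3 and Alb (4.63 to 2.12) without Set 4. Of the 40 lists, the count of expressed members moved in 3 at 0.5 CPM and in 3 without Set 1 (Müllerian, follicle and erythroid), in 3 at 2 CPM (endothelium, hepatocyte and integrin alpha chains) and in 6 at an RPKM of at least 1 (those 3, Müllerian, fibrillar and network collagens). The number of variable genes, 482, was 112 to 441 when each line was left out in turn, 1944 at a ratio of at least 2, 166 at a ratio of at least 8, 884 with no filter on the mean, 225 at a mean CPM of at least 5 and 242 with a pseudocount of 1 CPM. The lowest of these without a line, and the lowest coefficient of variation, came without Set 1, and the coefficient of 22.6% was 14.5 to 25.4% when each line was left out. With each of the other lines left out, the genes apart upward and downward numbered 163 to 232 and 619 to 683 for Set 1, 155 to 192 and 25 to 102 for Set 2, 7 to 86 and 11 to 80 for Set 3, and 13 to 78 and 20 to 109 for Set 4. At a mean CPM of at least 5 they numbered 89 and 328, 48 and 11, 1 and 3, and 0 and 3. At a gap of at least 4-fold they numbered 18 and 125, 25 and 3, 1 and 0, and 0 and 1. Without genes that share 25% or more of their 31-base stretches, a setting chosen after seeing the data, Set 4 was apart upward in 3 genes. With TMM scaling Set 1 was apart in 181 and 448 genes, and with DESeq2 size factors in 183 and 442. The cause of these changes was not tested. With the longest transcript as the length in place of all exons, 65 levels per length moved by more than their SD and 191 did not. No paired analysis was possible because the results come from no test and the Control lines form a single group. Depth limits absence to levels above the 3-count floor, and with 1 library per line the line, the library and the sequencing run cannot be told apart.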
